A study of Mus musculus with 54 samples.

Results

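Microglia, the phagocytes of the brain, were compared 15 min after cells loaded with alpha-synuclein had been mixed with unloaded cells. The comparison holds 8 of the 54 libraries of the series: 4 of aSyn-loaded donors and 4 of acceptors, chosen as all libraries whose title gives 15 min, and paired by the number in the title. A number is called an experiment here. The labels give both libraries of a number the same passage and say that each co-culture was sorted back into both populations; that donor 1 and acceptor 1 came from 1 co-culture is not stated in words.

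All 8 libraries came from primary microglia of neonatal C57BL/6 mice with no stated genetic change. Cells of 2 brains had been pooled in each flask, grown for 7 to 10 days in medium with 1% conditioned medium of L929 cells, and shaken off an astrocyte layer. Donors received 1 µM alpha-synuclein carrying the dye Atto-488 for 14 h, and acceptors received the violet dye CellTracer for 15 min and no alpha-synuclein. Donors were seeded at a higher cell number, in petri dishes, and acceptors at a lower one, in T25 flasks. Both populations were then co-cultured for 15 min and recovered by flow cytometry. Donors and acceptors therefore differ in alpha-synuclein, dye, seeding and vessel at once, and these cannot be told apart within this comparison. Passage was 3 in experiment 1, 1 in experiment 2, and 2 in experiments 3 and 4, the same for both members of a pair. The labels do not say which animals a number stands for, so p-values cannot be read as a spread between animals. They measure the spread left between libraries of all groups fitted, once shifts between experiments are taken out.

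Alpha-synuclein is a presynaptic protein that forms the aggregates of Parkinson disease. Microglia take such aggregates up, sense them partly through Toll-like receptors, and answer with NF-kB, the transcription factor family that drives cytokine, chemokine and survival genes. Cargo that is hard to degrade also engages NRF2, which drives antioxidant genes, the lysosome, and chaperones. Neighbouring microglia can share such a load through actin-based membrane bridges, tunnelling nanotubes, which is why the state of the loaded and the unloaded cells soon after contact is of interest.

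Total counts ran from 7807389 (acceptor 2) to 14021275 (donor 2), and 13330 to 14236 genes had counts in a library. Experiment 4 stood apart in both members of its pair. The identifiers in the titles of its libraries form a separate number range, which the titles do not call a batch. The ribosomal RNA precursor Rn45s took 14.5 to 20.5% of its counts against 3.33 to 13.1% in the others. Experiment 4 also held by far the highest levels of several cytokine genes in donor and acceptor alike. Where leaving out an experiment ended a named gene's call, the value without that experiment follows in the same paragraph. The same holds where it moved a called gene's log2 fold change by over 1.5 times. For genes that were not called, such moves are given only in part. The values without experiment 4 are the values within the other number range, and experiment 4 alone allows no test.

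Microglial identity was checked on 15 markers, all detected. Their summed level, in CPM (counts relative to library size, scaled by TMM), ran from 4822 to 17853 in donors and from 9395 to 17992 in acceptors, with donor 4 the lowest. The pan-leukocyte phosphatase Ptprc was higher in donors by 0.52 on the log2 scale (edgeR adjusted p 0.00503), 1 marker was lower, and 13 of the 15 were not called. The homeostatic markers P2ry12 and Tmem119 stayed below 11 CPM in all 8 libraries, with P2ry12 at 7.27, 4.44, 6.31 and 2.70 CPM in donors 1 to 4 and 5.45, 5.93, 5.12 and 3.02 in acceptors. Marker levels were not matched in pair 4, where the sum was 4822 CPM in donor 4 and 9395 in acceptor 4. Cx3cr1, Fcrls and Trem2 had far fewer counts in donor 4 than in acceptor 4, while Aif1, Itgam, Ptprc and Tmem119 had more. The median log2 difference of 21 homeostatic genes was 0.25, -0.41, 0.052 and -1.01 in pairs 1 to 4. Summed levels of 11 astrocyte markers were 13.2 to 24.0 CPM in donors and 11.7 to 50.2 in acceptors, those of 11 oligodendrocyte lineage markers 116 to 216 and 133 to 336, and those of 10 neuronal markers 0.282 to 5.35 and 2.44 to 22.3. Acceptor 3 held the highest sum of all 3 lists. Endothelial markers summed to 58.8 to 82.7 CPM in donors and 42.3 to 57.5 in acceptors, fibroblast and mural markers to 1.75 to 13.2 and 1.22 to 15.5 with Rgs5 at 0 in all 8 libraries, monocyte and neutrophil markers to 1.12 to 4.996 and 0.562 to 4.77, and lymphocyte markers to 0.714 to 13.5 and 0.862 to 8.51. Ptprc lost its call without experiment 1 (edgeR adjusted p 0.0529).

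Donors and acceptors differed broadly at 15 min. Of 13169 genes tested, 1260 were called (9.57%), 658 higher in donors (5%) and 602 lower (4.57%). Called means an adjusted p-value under 0.05 in edgeR's quasi-likelihood test with the experiment as a block, Benjamini-Hochberg adjusted over all genes tested. A change of over 2-fold was reached by 250 of the higher and 177 of the lower genes, and one of over 4-fold by 92 and 57. The 1260 genes went the same way in all 4 pairs in 92% of cases, against 29.7% of all genes tested. For 486 of them (38.6%) the 4 donor and 4 acceptor values did not overlap, against 5.85% of all genes tested. Both shares follow in large part from the calling, which used these same libraries, and are description only.

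How many genes were called depended on the use of the pairing and on the libraries fitted. Same-numbered libraries deviated together, and the spread between libraries, the biological coefficient of variation, was 20.97% with the replicate block and 38.1% without it. With no replicate block the count was 117 (0.888%), of which 90 were higher in donors (0.683%) and 27 lower (0.205%), and all 117 were among the 1260. A blocked fit of the 8 libraries alone keeps the pairing and has fewer samples to estimate the spread from. It called 195, of which 193 were among the 1260. The 1260 come from a fit of all groups whose block is additive. That fit counts libraries of 1 experiment at different times as independent beyond the block, while only 4 experiments replicate the difference. Of 106 named genes that were called, 82 were not called with no replicate block, and 55 of the 96 tested were not called in the fit of the 8 libraries. Leaving out experiment 1, 2 or 3 gave 730, 584 and 704 called genes, and leaving out experiment 4 gave 871, 571 higher and 300 lower.

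The clearest single difference was in Adgre5, which encodes CD97, an adhesion G protein-coupled receptor of leukocytes. Donors 1 to 4 held 98.4, 86.1, 91.7 and 80.9 CPM and acceptors 1 to 4 4.32, 3.74, 6.74 and 5.95 CPM. All 4 donor values lie above 80 CPM and all 4 acceptor values below 7. Donors exceeded acceptors by 4.12 in log2 fold change (SE 0.19, edgeR adjusted p 5.14e-20), and with no replicate block the edgeR adjusted p was 1.16e-13. The gene lies on chromosome 8, 83723251 to 83741326 on the minus strand (mm10), where Mir1668 lies on its strand and Ddx39 overlaps it on the other. Whether counting used strand is not given in the sources used here. The log2 difference in Ddx39 was 0.40 (SE 0.16, edgeR adjusted p 0.108), which was not called.

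Several genes of transport, signalling and bone-resorbing cells had the same clean separation. Slc13a3, a sodium-coupled carrier of dicarboxylates such as succinate, held 27.5, 26.5, 75.2 and 39.3 CPM in donors 1 to 4 and 3.19, 4.13, 7.37 and 5.09 in acceptors, higher in donors by 3.04 in log2 fold change (SE 0.26, edgeR adjusted p 1.36e-10). The tartrate-resistant acid phosphatase Acp5 held 5.08, 7.11, 6.62 and 7.06 CPM against 0.376, 0.258, 0.983 and 0.862, higher in donors by 3.35 in log2 fold change (SE 0.41, edgeR adjusted p 8.03e-07). Neither gene's groups overlap, and every pair differs in the same direction. Syk, the kinase downstream of immunoreceptor tyrosine motifs, held 176, 211, 227 and 363 CPM against 62.2, 82.7, 105 and 88.4 (log2 fold change 1.49, SE 0.18, edgeR adjusted p 5.18e-07). Tifab, an inhibitor of the TRAF6 adaptor pathway, held 61.8, 62.9, 50.1 and 24.8 CPM against 10.9, 15.7, 6.88 and 3.71 (log2 fold change 2.49, SE 0.28, edgeR adjusted p 2.32e-07). In Tifab the donor of experiment 4 was the lowest donor and still above every acceptor. Pla2g7, a phospholipase that degrades platelet-activating factor, differed by 1.24 (SE 0.15, edgeR adjusted p 4.32e-07). These genes, apart from Adgre5, were picked after their values were seen, as those with the smallest p-values.

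**Figure D1:**
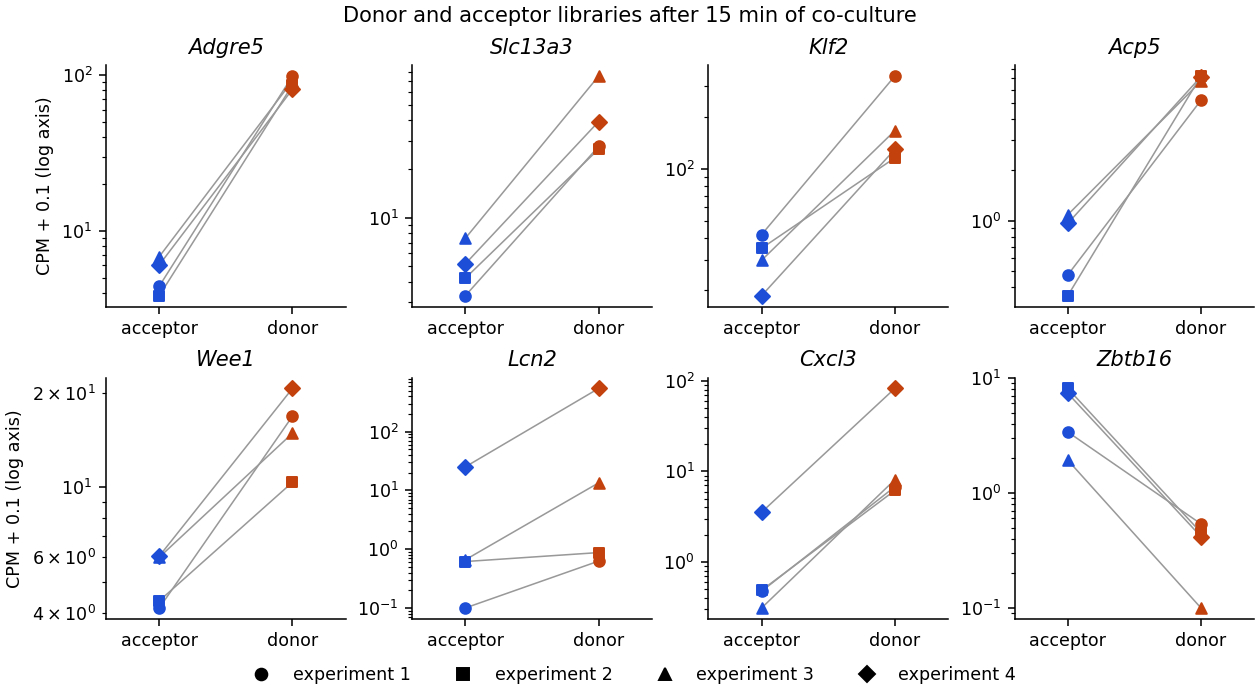
CPM plus 0.1 on a log axis for 8 genes; blue points are acceptor libraries, orange points donor libraries, marker shapes the 4 experiments, and grey lines join the members of a pair. Adgre5, Slc13a3, Klf2, Acp5, Wee1 and Cxcl3 are higher in every donor than in every acceptor and Zbtb16 is lower in every donor, whereas the Lcn2 values of experiment 4 lie far above those of the other 3 experiments in both populations.

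NF-kB target genes made the broadest group. Of 49 members tested 27 were higher in donors and 1 lower, with a median log2 fold change of 1.32, beside 9.57% called and a median of -0.036 over all genes tested. The list's count of calls was 18, 19, 22 and 29 without experiments 1 to 4 in turn, and 2 with no replicate block. The neutrophil attractant Cxcl3 held 6.66, 6.06, 7.98 and 82.4 CPM in donors 1 to 4 against 0.376, 0.387, 0.211 and 3.45 in acceptors (log2 fold change 4.36, SE 0.68, edgeR adjusted p 3.44e-05). Its relative Cxcl2 held 539.6, 623, 251.97 and 1249 CPM against 174, 215, 182 and 211 (log2 fold change 1.55, SE 0.44, edgeR adjusted p 0.019). Neither chemokine overlaps between groups, and the donor of every pair was higher, in Cxcl2 least so in experiment 3. The monocyte attractant Ccl7 held 18.0, 69.6, 10.4 and 219 CPM against 2.25, 13.03, 2.39 and 9.48 (log2 fold change 3.24, SE 0.63, edgeR adjusted p 5.90e-04), and its relative Ccl2 differed by 2.19 (SE 0.55, edgeR adjusted p 0.00845). Cxcl2 lost its call without experiment 1 or 2 (edgeR adjusted p 0.092 and 0.124). Ccl2 lost its call without experiment 1 or 2 (edgeR adjusted p 0.0543 and 0.0514).

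Among cytokines, Il1b, the precursor of secreted interleukin-1 beta, held 182, 352, 257.3 and 2390.5 CPM in donors 1 to 4 against 31.5, 72.4, 75.4 and 259.3 in acceptors (log2 fold change 2.44, SE 0.58, edgeR adjusted p 0.00503). Acceptor 4 held more Il1b than donors 1 and 3, and the groups overlap although all 4 pairs differ in the same direction. Il1a held 0.613, 1.83, 2.71 and 138 CPM against 0, 0, 0.211 and 8.79 (log2 fold change 3.90, SE 0.74, edgeR adjusted p 5.06e-04). Il6 came mostly from donor 4, at 0, 0.423, 0 and 20.1 CPM in donors against 0, 0, 0 and 0.517 in acceptors (log2 fold change 5.20, SE 0.95, edgeR adjusted p 2.90e-04). Il6 did not pass the filter on low counts once experiment 4 was left out. The siderophore-binding protein Lcn2 held 0.526, 0.775, 13.3 and 544 CPM against 0, 0.516, 0.562 and 25.2 (log2 fold change 4.24, SE 0.58, edgeR adjusted p 3.64e-06), and without experiment 4 the difference was 3.43 (SE 1.04, edgeR adjusted p 0.0398). Inducible nitric oxide synthase, Nos2, held 0.701, 2.47, 6.31 and 90.6 against 0, 0.258, 1.33 and 2.93 CPM (log2 fold change 3.59, SE 0.70, edgeR adjusted p 6.18e-04), and 2.60 (SE 0.63, edgeR adjusted p 0.00788) without experiment 4. Donor 4 had the highest value of each of these 5 genes. Il1rn, the antagonist of the interleukin-1 receptor, was higher too, at 305, 364, 377 and 2398 CPM against 59.1, 109, 151 and 140.2 (log2 fold change 2.29, SE 0.52, edgeR adjusted p 0.00342), with no overlap. Il1rn lost its call without experiment 1 (edgeR adjusted p 0.0554).

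The list also held a lower gene and several that were not called. Ccl4, a macrophage inflammatory chemokine, was lower in the donor of every pair, at 274, 263, 94.6 and 133 CPM against 405, 446, 399 and 230.8 (log2 fold change -1.05, SE 0.29, edgeR adjusted p 0.0161). Tnf (log2 fold change 0.83, SE 0.32, edgeR adjusted p 0.0913) and the inhibitor Nfkbia (log2 fold change 0.29, SE 0.20, edgeR adjusted p 0.369) were not called. The lipopolysaccharide co-receptor Cd14, the most abundant member that was not called, held 1126, 1144, 1933 and 1545 CPM against 1307, 1139, 1107 and 969, and its groups overlap. In the list as a whole 11 of the 28 called members had groups that do not overlap, near the 38.6% of all called genes. Without experiment 4, 27 were higher and 2 lower with a median of 0.91. The genes Bcl2a1a, Bcl2a1b and Bcl2a1d, survival factors also counted among the 27, are near-identical copies, so reads may be split between them. Ccl4 lost its call without experiment 2 or 3 (edgeR adjusted p 0.0686 and 0.0881).

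The upstream sequences of 3 of these genes on chromosome 5 are shown because each holds a match to the NF-kB consensus beside a large difference in level. Each window is the 250 bases before the RefSeq start (GRCm38.p6, plus strand, 5′ to 3′), at chr5:90903649-90903898, chr5:90785851-90786100 and chr5:30012864-30013113, and capitals mark the match.
Cxcl2: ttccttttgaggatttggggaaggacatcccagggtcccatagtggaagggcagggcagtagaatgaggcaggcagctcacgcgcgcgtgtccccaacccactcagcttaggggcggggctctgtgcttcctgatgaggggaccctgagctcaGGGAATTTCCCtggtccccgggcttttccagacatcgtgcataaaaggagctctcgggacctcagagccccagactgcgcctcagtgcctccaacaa
Cxcl3: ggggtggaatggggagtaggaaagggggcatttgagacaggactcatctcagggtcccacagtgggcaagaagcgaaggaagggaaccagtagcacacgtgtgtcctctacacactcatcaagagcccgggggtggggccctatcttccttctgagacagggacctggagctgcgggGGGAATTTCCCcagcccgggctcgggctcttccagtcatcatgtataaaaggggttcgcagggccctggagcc
Il6: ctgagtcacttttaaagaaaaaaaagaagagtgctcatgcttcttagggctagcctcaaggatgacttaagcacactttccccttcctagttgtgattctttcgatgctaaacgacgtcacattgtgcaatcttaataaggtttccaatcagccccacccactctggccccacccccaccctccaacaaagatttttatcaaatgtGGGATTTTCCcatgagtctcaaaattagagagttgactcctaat
In the Cxcl2 and Cxcl3 windows the match reads as such on both strands. Of the 27 members higher in donors 23 had upstream windows in the RefSeq table, and 9 of their 26 windows (34.6%) held a match on either strand: those of Csf1, Cxcl1, Cxcl10, Cxcl2, Cxcl3, Il6, Sod2, Tnfaip2 and Tnfaip3. The share was 8.97% over windows of all genes tested, 10.5% over those of all genes higher in donors and 10.3% over those of genes lower. The list was drawn up from NF-kB response genes, so a raised share of NF-kB matches could be foreseen. The AP-1 motif TGANTCA was found in 8.23% of windows of higher genes, 2.65% of lower genes and 4.59% of all genes tested. In the same 26 windows it was found in 8 (30.8%): those of Bcl2a1a, Bcl2a1b, Bcl2a1d, Cxcl10, Il1a, Il1rn, Il6 and Tnfaip3. The Bcl2a1 genes are near-identical copies, so their windows may not be separate finds. The core of the antioxidant response element (TGAC, any 3 bases, GC) was found in 11.5% of windows of higher genes, 10.8% of lower genes and 11.6% of all genes tested. Of windows of the NRF2 and oxidative stress genes higher in donors, 1 of 13 (7.69%) held it. This core can overlap an AP-1 match. A match is a run of letters and does not show binding.

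Genes that growth factors and stress induce within minutes, the immediate early genes, were higher in part. Of 40 tested, 10 were higher and 1 lower (27.5% called, beside 9.57% over all genes), with a median log2 fold change of 0.92. Klf2, a transcription factor that restrains myeloid activation, held 342, 116, 166 and 129 CPM in donors 1 to 4 against 41.8, 34.8, 29.7 and 18.5 in acceptors (log2 fold change 2.55, SE 0.34, edgeR adjusted p 3.33e-06), and its relative Klf4 47.3, 40.7, 39.2 and 42.4 against 15.8, 15.6, 7.79 and 13.3 (log2 fold change 1.74, SE 0.31, edgeR adjusted p 2.45e-04). Neither gene's groups overlap. Fosb, an AP-1 subunit, held 37.6, 22.4, 17.8 and 17.0 CPM against 6.57, 3.998, 5.55 and 8.02 (log2 fold change 2.00, SE 0.53, edgeR adjusted p 0.0122). The AP-1 subunit Fosl1 had 89 counts over the donors, though none in donor 2, and 0 over the acceptors, which is at least 25.9-fold higher against a floor of 3 counts over the group. Fosb lost its call without experiment 1 or 3 (edgeR adjusted p 0.0811 and 0.0786). Fosl1 lost its call without experiment 3 or 4 (edgeR adjusted p 0.0541 and 0.0986).

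Other AP-1 and early response genes divided by experiment. Fos held 614, 480.4, 238.2 and 219 CPM in donors against 369, 289, 274 and 423 in acceptors (log2 fold change 0.13, SE 0.35, edgeR adjusted p 0.847): it was higher in the donor in experiments 1 and 2 and lower in 3 and 4. Egr1 split in the same way, at 116, 106, 16.2 and 4.04 CPM against 8.83, 14.1, 26.5 and 5.17 (log2 fold change 1.92, SE 0.69, edgeR adjusted p 0.0673). Atf3 (0.042) and Jun (-0.21) were not called, and the proliferation factor Myc was lower in all 4 donors (log2 fold change -1.38, SE 0.46, edgeR adjusted p 0.0497). The list's median difference in the 4 pairs was 1.09, 0.87, 0.49 and -0.055. The list's count of calls was 7, 7, 7 and 18 without experiments 1 to 4, with no gene called lower in these, and 3 with no replicate block. Egr1 was called without experiment 3 or 4 (edgeR adjusted p 0.0467 and 0.0374). Myc lost its call when any 1 experiment was left out (edgeR adjusted p 0.184, 0.105, 0.166 and 0.0602).

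**Figure D2:**
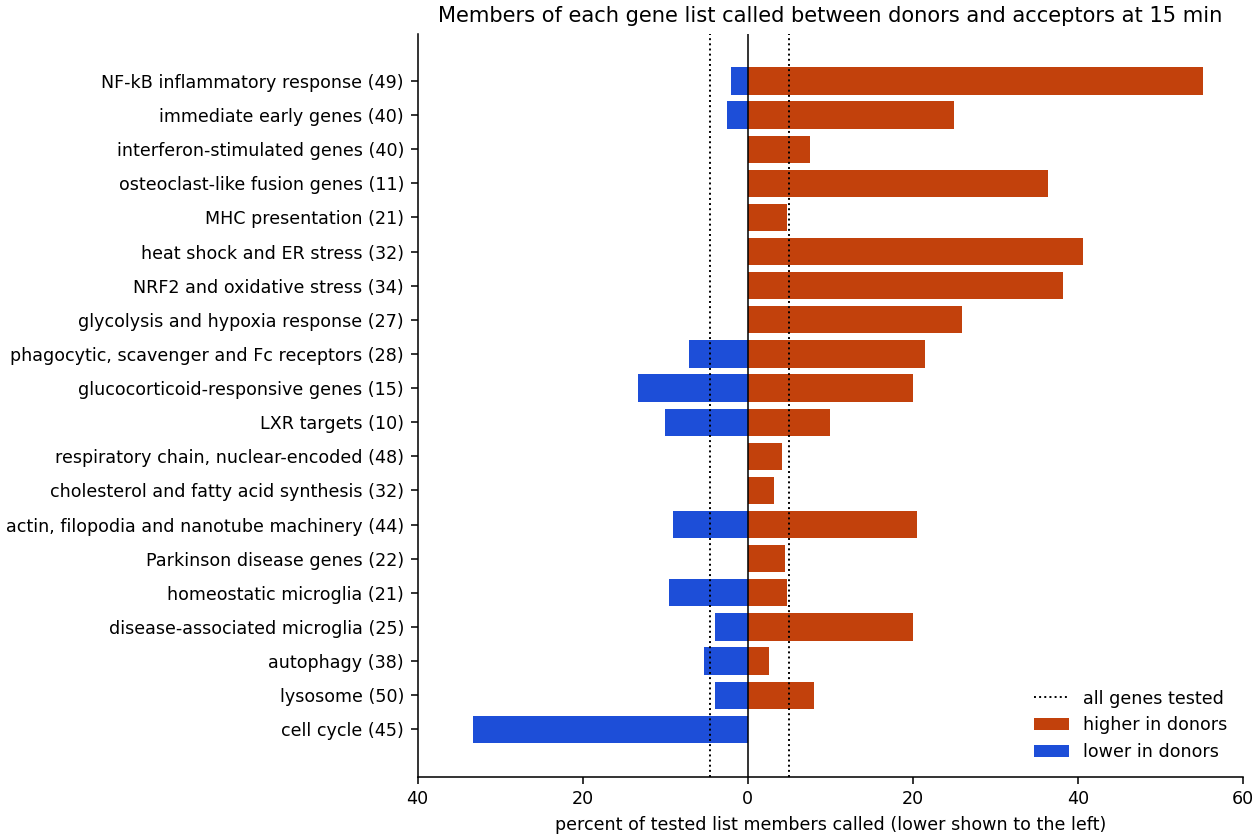
Percent of tested members called higher (orange, to the right) and lower (blue, to the left) in donors for 20 gene lists, with the number tested in parentheses; dotted lines mark the share over all genes tested. The NF-kB list has the longest bar to the right, 27 of 49, and the cell cycle list the longest to the left, 15 of 45.

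Part of the oxidative and proteotoxic stress genes were higher in donors, and none was called lower. Of 34 NRF2 and oxidative stress genes 13 were higher (38.2%, beside 9.57% called over all genes), with a median of 0.45. Slc7a11, the cystine importer that feeds glutathione synthesis, held 29.9, 11.2, 174 and 318 CPM in donors 1 to 4 against 6.85, 1.03, 33.7 and 30.3 in acceptors (log2 fold change 2.65, SE 0.37, edgeR adjusted p 7.51e-06). Its level varied over 10-fold between experiments in both populations, while the donor was higher in every pair. The quinone reductase Nqo1 held 3.85, 1.83, 9.82 and 20.1 CPM against 2.25, 1.29, 2.32 and 4.14 (log2 fold change 1.56, SE 0.40, edgeR adjusted p 0.00985). Glutathione reductase, Gsr, held 56.9, 54.6, 93.2 and 89.8 CPM against 29.9, 22.7, 41.2 and 46.6 (log2 fold change 1.08, SE 0.21, edgeR adjusted p 7.42e-04), with no overlap. The haem-degrading enzyme Hmox1 was dominated by experiment 4, at 213, 144, 398 and 1743 CPM against 115, 80.5, 163 and 1474 (log2 fold change 0.79, SE 0.21, edgeR adjusted p 0.014). The ferritin light chain Ftl1, at 20113, 16871, 24036 and 10458 CPM in donors and 20362, 15447, 21562 and 17623 in acceptors, was not called (log2 fold change -0.12, SE 0.14, edgeR adjusted p 0.635). The list's count of calls was 13, 5, 7 and 12 without experiments 1 to 4, and 0 with no replicate block. Nqo1 lost its call without experiment 3 or 4 (edgeR adjusted p 0.0786 and 0.113). Hmox1 lost its call without experiment 2 or 3 (edgeR adjusted p 0.0877 and 0.112).

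Of 32 heat shock and endoplasmic reticulum (ER) stress genes 13 were higher and 0 lower, with a median of 0.46. The share called was 40.6%, beside 9.57% over all genes. Chac1, a glutathione-degrading enzyme induced by ATF4, held 10.95, 25.3, 14.8 and 15.1 CPM in donors 1 to 4 against 2.25, 7.35, 4.28 and 2.93 in acceptors (log2 fold change 2.00, SE 0.28, edgeR adjusted p 7.86e-06). Trib3, a pseudokinase of the same branch, held 33.4, 87.4, 41.3 and 52.5 against 9.58, 17.0, 23.8 and 13.1 (log2 fold change 1.65, SE 0.29, edgeR adjusted p 2.29e-04). Herpud1, part of ER-associated degradation, held 62.7, 87.9, 42.9 and 53.3 against 25.6, 24.1, 25.8 and 20.6 (log2 fold change 1.30, SE 0.19, edgeR adjusted p 8.01e-06). The groups of these 3 genes do not overlap. The inducible chaperone Hspa1b, at 8.32, 12.6, 21.1 and 50.8 CPM against 5.73, 6.06, 3.93 and 4.14 (log2 fold change 2.00, SE 0.50, edgeR adjusted p 0.0075), shares near-identical sequence with Hspa1a (log2 fold change 1.56, SE 0.45, edgeR adjusted p 0.0225), so reads of the pair may be split between them. The ER chaperone Hspa5 was higher (log2 fold change 0.85, SE 0.18, edgeR adjusted p 0.00201), and the abundant cytosolic Hsp90ab1 was not called (log2 fold change 0.020, SE 0.14, edgeR adjusted p 0.948). The list's count of calls was 15, 7, 10 and 7 without experiments 1 to 4, and 5 with no replicate block. Hspa1b lost its call without experiment 3 or 4 (edgeR adjusted p 0.0729 and 0.0704). Hspa1a lost its call without experiment 2, 3 or 4 (edgeR adjusted p 0.0877, 0.0996 and 0.131).

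Interferon-stimulated and antigen presentation genes were higher by median, with few calls. All 40 interferon-stimulated genes tested had a positive log2 fold change, with a median of 0.86, and 3 were called: Oasl1, Cmpk2 and Dhx58. That share, 7.5%, lies near the 9.57% over all genes. Cmpk2, a mitochondrial nucleotide kinase, held 154, 229.2, 161 and 202 CPM in donors 1 to 4 against 43.6, 141, 107 and 23.9 in acceptors (log2 fold change 1.46, SE 0.45, edgeR adjusted p 0.0341). In Cmpk2 acceptors 1 and 4 lay far below acceptors 2 and 3, while the donors were alike. The list's median by pair was 1.07, -0.029, 0.41 and 2.76, close to 0 in experiment 2 and largest in experiment 4. The count of calls was 0, 14, 1 and 0 without experiments 1 to 4, all higher, and the list's median without experiment 4 was 0.47. All 21 antigen presentation genes were positive as well (median 0.57), and 1 was called (4.76%), the class II loading factor H2-DMa (log2 fold change 0.84, SE 0.24, edgeR adjusted p 0.023). The count of that list was 0, 1, 0 and 0 without experiments 1 to 4, 0 with no replicate block and 3 with DESeq2. The class I light chain B2m held 7978, 11218, 10704 and 11236 CPM against 5965, 10009, 10012 and 5673 and was not called (log2 fold change 0.41, SE 0.18, edgeR adjusted p 0.13). Without experiment 4 its log2 fold change was 0.24. Oasl1 lost its call without experiment 1, 3 or 4 (edgeR adjusted p 0.171, 0.118 and 0.069), and its log2 fold change was 1.37 without experiment 4. Dhx58 lost its call without experiment 1, 3 or 4 (edgeR adjusted p 0.201, 0.0775 and 0.0686). Cmpk2 lost its call without experiment 1 or 4 (edgeR adjusted p 0.18 and 0.0978). H2-DMa lost its call without experiment 1, 3 or 4 (edgeR adjusted p 0.125, 0.0625 and 0.0806), and its log2 fold change was 0.49 without experiment 1.

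**Figure D3:**
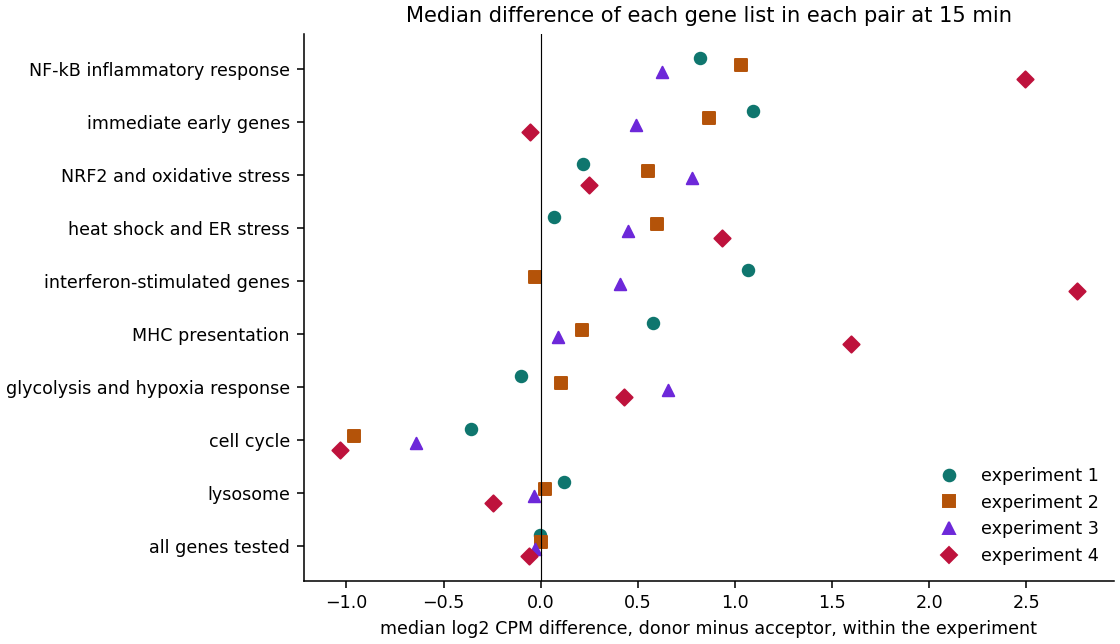
Median log2 CPM difference of donor minus acceptor within each of the 4 experiments (marker shapes) for 9 gene lists and for all genes tested. The interferon-stimulated list spans -0.029 in experiment 2 to 2.76 in experiment 4, while the cell cycle list is negative in all 4.

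Cell cycle genes were lower in donors in part, with a count that depended on the experiments used. Of 45 tested 15 were lower and 0 higher (33.3% called, beside 9.57% over all genes). The median log2 fold change was -0.77, and medians by pair were -0.36, -0.96, -0.64 and -1.03. The mitotic kinase Plk1 held 11.8, 1.62, 4.95 and 0.397 CPM in donors 1 to 4 against 18.9, 9.42, 12.3 and 7.24 in acceptors (log2 fold change -1.76, SE 0.45, edgeR adjusted p 0.0105), and topoisomerase Top2a 51.1, 8.87, 9.90 and 3.57 against 64.4, 35.5, 22.7 and 34.8 (log2 fold change -1.53, SE 0.47, edgeR adjusted p 0.0308). Each was lower in the donor of every pair. The groups overlap, and experiment 1 was highest in both populations. Cyclin D1, Ccnd1, which licenses entry into the cycle, held 69.6, 67.0, 38.1 and 6.82 CPM against 161, 255.1, 58.6 and 93.7 (log2 fold change -1.73, SE 0.52, edgeR adjusted p 0.0283). The replication clamp Pcna was lower in all 4 donors and not called (log2 fold change -0.27, SE 0.13, edgeR adjusted p 0.175). With no replicate block, and in the fit of the 8 libraries alone, 0 were called; without experiments 1 to 4 the count was 12, 2, 2 and 11, all lower. The replication licensing genes Mcm3, Mcm5, Mcm6 and Mcm7 were among the 15, at -0.44, -0.97, -0.34 and -0.51 in log2 fold change. In bulk libraries fewer cycling cells and less of these RNAs in each cell cannot be told apart. Plk1 lost its call without experiment 2 or 3 (edgeR adjusted p 0.119 and 0.0531). Top2a lost its call without experiment 2 or 3 (edgeR adjusted p 0.198 and 0.121). Ccnd1 lost its call without experiment 1, 2 or 3 (edgeR adjusted p 0.0885, 0.166 and 0.0503). Mcm3 lost its call when any 1 experiment was left out (edgeR adjusted p 0.0542, 0.134, 0.0845 and 0.092). Mcm5 lost its call without experiment 2, 3 or 4 (edgeR adjusted p 0.137, 0.102 and 0.123). Mcm6 lost its call when any 1 experiment was left out (edgeR adjusted p 0.0677, 0.0525, 0.0699 and 0.122). Mcm7 lost its call when any 1 experiment was left out (edgeR adjusted p 0.0977, 0.0866, 0.102 and 0.0909).

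Receptors of uptake were mixed. Of 28 phagocytic, scavenger and Fc receptor genes 6 were higher and 2 lower (28.6% called, beside 9.57% over all genes). The scavenger receptor Marco held 12.2, 5.71, 199 and 101 CPM in donors 1 to 4 against 1.41, 0.516, 33.9 and 5.52 in acceptors (log2 fold change 3.21, SE 0.49, edgeR adjusted p 2.99e-05). Its level differed over 10-fold between experiments and acceptor 3 exceeded donors 1 and 2. The integrin Itgal, a subunit of LFA-1, held 77.9, 54.8, 137 and 245.3 CPM against 8.54, 7.996, 37.1 and 18.3 (log2 fold change 2.86, SE 0.42, edgeR adjusted p 1.55e-05), and the inhibitory Fc receptor Fcgr2b 95.3, 57.1, 43.2 and 146 against 25.9, 25.7, 27.4 and 22.6 (log2 fold change 1.58, SE 0.40, edgeR adjusted p 0.00845). Neither overlaps between groups. The efferocytosis receptor Mertk was higher (log2 fold change 0.68, SE 0.15, edgeR adjusted p 0.00223), whereas Lrp1 (-0.55, edgeR adjusted p 0.0136) and the lipoprotein receptor Scarb1 (-0.75, edgeR adjusted p 0.00565) were lower. Cd36 was not called (log2 fold change -0.23, SE 0.21, edgeR adjusted p 0.527). The count of calls was 5, 6, 6 and 8 without experiments 1 to 4, and 1 with no replicate block. Fcgr2b lost its call without experiment 1 (edgeR adjusted p 0.0774). Mertk lost its call without experiment 2 (edgeR adjusted p 0.0673). Lrp1 lost its call without experiment 1, 2 or 4 (edgeR adjusted p 0.0673, 0.0961 and 0.0697). Scarb1 lost its call without experiment 4 (edgeR adjusted p 0.0682).

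The Toll-like receptor gene Tlr12 had 110 counts over the donors and 1 over the acceptors, a ratio of 95.9 (exact 95% interval 16.9 to 3822 for counting error only). Donors 1 to 4 held 3.33, 2.96, 1.52 and 0.872 CPM. Its edgeR adjusted p was 0.00167. After exposure without co-culture Tlr12 was not called (0.69, edgeR adjusted p 0.62), and the difference between both was not called either (edgeR adjusted p 0.328). Its level was 0.562 ± 0.818 CPM in untreated cells and 0.996 ± 0.865 in aSyn-treated cells (SD, n = 4 each).

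State markers of microglia showed no common direction. Of 25 disease-associated microglia genes, the set that rises around plaques, 5 were higher and 1 lower (median -0.064). The share called was 24%, beside 9.57% over all genes. The fatty acid carrier Fabp5 held 1074, 1409.5, 1905 and 1453 CPM in donors 1 to 4 against 629, 754, 1257 and 767 in acceptors (log2 fold change 0.79, SE 0.11, edgeR adjusted p 3.11e-06), and the growth factor Csf1 was higher as well (log2 fold change 1.34, SE 0.26, edgeR adjusted p 7.56e-04). Lipoprotein lipase, Lpl, was lower at 5674, 5680.2, 3855 and 1424 against 9124, 7633, 6092 and 7498 CPM (log2 fold change -1.04, SE 0.33, edgeR adjusted p 0.0365), with no overlap and donor 4 lowest. Apoe was not called (log2 fold change -0.45, SE 0.27, edgeR adjusted p 0.29). Without experiment 4 its log2 fold change was -0.0033. The list's count of calls was 3, 3, 3 and 8 without experiments 1 to 4, and 0 with no replicate block. The receptor Trem2 held 503, 289.8, 344 and 37.3 CPM against 670.2, 473, 578 and 641 and was not called (log2 fold change -1.40, SE 0.56, edgeR adjusted p 0.102), with donor 4 far below the rest. Among 21 homeostatic genes 1 was higher, Mertk, and 2 were lower, among them the lineage factor Sall1 (log2 fold change -0.94, SE 0.26, edgeR adjusted p 0.0185). The homeostatic share called was 14.3%, and the count was 1, 1, 1 and 4 without experiments 1 to 4, and 0 with no replicate block. Medians in pairs 1 to 4 were 0.25, -0.41, 0.052 and -1.01 in the homeostatic list. In the disease-associated list they were 0.20, 0.13, -0.031 and -0.65. The homeostatic median was -0.060, and without experiment 4 the medians of both lists were 0.053 and 0.15. The LXR nuclear receptor gene Nr1h3, a sensor of oxysterols, held 27.2, 29.4, 16.6 and 34.2 CPM against 3.57, 3.48, 7.86 and 7.93 (log2 fold change 2.22, SE 0.37, edgeR adjusted p 8.54e-05); of the 10 LXR targets tested, Nr1h3 itself was higher, Lpl lower and 8 were not called. The LXR share called was 20%, and without experiments 1 to 4 the LXR count was 1, 1, 2 and 3. Lpl lost its call without experiment 1, 2 or 3 (edgeR adjusted p 0.102, 0.071 and 0.112), and its log2 fold change was -0.57 without experiment 4. Trem2 was called without experiment 4 (edgeR adjusted p 1.66e-04). Sall1 lost its call without experiment 1, 3 or 4 (edgeR adjusted p 0.0715, 0.0556 and 0.159), and its log2 fold change was -0.58 without experiment 4.

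Genes of osteoclast-like fusion were few and large in difference. Of 11 tested 4 were higher and 0 lower (36.4% called, beside 9.57% over all genes): Ocstamp, Acp5, Mmp9 and Src. The count stayed 4 when any 1 experiment was left out, and was 2 with no replicate block. Ocstamp, a membrane protein of cell fusion, held 7.71, 4.30, 1.28 and 2.86 CPM in donors 1 to 4 against 0.282, 0, 0 and 0.172 in acceptors (log2 fold change 4.95, SE 0.89, edgeR adjusted p 2.45e-04). The matrix protease Mmp9 held 69.4, 18.5, 238.8 and 30.4 against 7.14, 4.39, 119 and 2.4998 (log2 fold change 2.21, SE 0.37, edgeR adjusted p 1.01e-04), with experiment 3 far above the others in both populations. The receptor Tnfrsf11a, RANK, was not called (log2 fold change 0.44, SE 0.17, edgeR adjusted p 0.0964). Without experiment 4 its log2 fold change was 0.28.

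Actin, filopodia and nanotube genes went both ways. Of 44 tested 9 were higher and 4 lower (29.5% called, beside 9.57% over all genes), with a median of -0.018. Tnfaip2, also known as M-Sec, a driver of nanotube formation, held 448, 424, 393 and 536 CPM in donors 1 to 4 against 167, 145, 229.2 and 409 in acceptors (log2 fold change 1.05, SE 0.21, edgeR adjusted p 0.00101); it is also a member of the NF-kB list. Every donor exceeded its own acceptor in Tnfaip2, and acceptor 4 exceeded donor 3. The filopodial bundler Fscn1 held 28.1, 6.34, 28.5 and 34.6 against 4.13, 1.93, 34.6 and 6.12 (log2 fold change 1.51, SE 0.50, edgeR adjusted p 0.0453) and was lower in the donor in experiment 3. The membrane-bending adaptor Baiap2 (log2 fold change 0.89, SE 0.16, edgeR adjusted p 2.86e-04) and the anti-capping protein Eps8 (log2 fold change 1.00, SE 0.32, edgeR adjusted p 0.042) were higher, and the severing protein Gsn (log2 fold change -0.91, SE 0.24, edgeR adjusted p 0.0137) and the kinase Rock2 (log2 fold change -0.56, SE 0.15, edgeR adjusted p 0.0136) lower. Actb held 11145, 10985, 9619 and 14027 CPM against 10983, 11649, 9658 and 12266 and was not called (log2 fold change 0.028, SE 0.10, edgeR adjusted p 0.896). The gap junction gene Gja1, an astrocyte marker, had 2 counts over the donors and 28 over the acceptors, a ratio of 16.1 (exact 95% interval 4.05 to 139). The count of calls in the list was 5, 4, 7 and 8 without experiments 1 to 4, and 1 with no replicate block. Fscn1 lost its call without experiment 1, 2 or 4 (edgeR adjusted p 0.252, 0.162 and 0.255), and its log2 fold change was 2.41 without experiment 3. Eps8 lost its call when any 1 experiment was left out (edgeR adjusted p 0.0677, 0.0857, 0.165 and 0.156). Gsn lost its call without experiment 2 (edgeR adjusted p 0.107), and its log2 fold change was -0.54 without experiment 4. Rock2 lost its call without experiment 2 or 4 (edgeR adjusted p 0.0755 and 0.145). Gja1 lost its call when any 1 experiment was left out (edgeR adjusted p 0.142, 0.14, 0.0838 and 0.129).

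Few genes of the degradation pathways were called. Of 50 lysosomal genes 4 were higher and 2 lower (12% called, beside 9.57% over all genes), with a median of -0.10. Without experiments 1 to 4 the count was 1, 1, 3 and 5, and with no replicate block 0. The cathepsin Ctsz held 1551, 1574, 1671 and 1229.9 CPM in donors 1 to 4 against 1198, 1145, 1447 and 708 in acceptors (log2 fold change 0.45, SE 0.13, edgeR adjusted p 0.0194), and the V-ATPase subunit Atp6v1h was higher too (log2 fold change 0.50, SE 0.12, edgeR adjusted p 0.00631). Ctsb, at 10456, 9589, 10036 and 5753 CPM against 9420.1, 8399, 10564 and 9014, was not called (log2 fold change -0.10, SE 0.14, edgeR adjusted p 0.695). Without experiment 4 its log2 fold change was 0.10. Of 38 autophagy genes the cargo receptor Sqstm1 was higher, at 1522, 2266, 2136 and 2579 against 854, 845, 1440.3 and 1432 CPM (log2 fold change 0.90, SE 0.16, edgeR adjusted p 2.47e-04), with no overlap. The ubiquitin-like Map1lc3a (log2 fold change -0.60, SE 0.19, edgeR adjusted p 0.0353) and Gabarapl1 (log2 fold change -0.48, SE 0.13, edgeR adjusted p 0.0142) were lower, and Gabarap was not called (log2 fold change 0.016, SE 0.093, edgeR adjusted p 0.937). The autophagy share called was 7.89%, and the count was 1, 2, 2 and 1 without experiments 1 to 4, and 0 with no replicate block. Ctsz lost its call without experiment 1 or 2 (edgeR adjusted p 0.0837 and 0.0702). Atp6v1h lost its call without experiment 2 (edgeR adjusted p 0.0933). Map1lc3a lost its call when any 1 experiment was left out (edgeR adjusted p 0.0893, 0.0779, 0.134 and 0.0504), and its log2 fold change was -0.37 without experiment 4. Gabarapl1 lost its call without experiment 1, 3 or 4 (edgeR adjusted p 0.0548, 0.115 and 0.272), and its log2 fold change was -0.25 without experiment 4.

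Metabolic lists differed from each other in share called. Of 27 glycolysis and hypoxia genes 7 were higher and 0 lower (25.9% called, beside 9.57% over all genes), with a median of 0.33. The fructose 2,6-bisphosphate producer Pfkfb3 held 56.9, 54.8, 72.2 and 74.5 CPM in donors 1 to 4 against 29.6, 30.2, 42.3 and 35.4 in acceptors (log2 fold change 0.90, SE 0.18, edgeR adjusted p 0.00112), the glucose transporter Slc2a1 100.04, 81.1, 158 and 107 against 76.8, 38.7, 61.2 and 68.4 (log2 fold change 0.85, SE 0.20, edgeR adjusted p 0.00371), and hexokinase Hk2 51.9, 69.7, 54.6 and 104 against 30.8, 51.8, 35.9 and 34.0 (log2 fold change 0.80, SE 0.19, edgeR adjusted p 0.00527). In Pfkfb3 and Slc2a1 the lowest donor exceeds the highest acceptor, as it does in Hk2 by a narrow margin. The count of calls was 9, 2, 2 and 3 without experiments 1 to 4, and 0 with no replicate block. Of 48 nuclear-encoded respiratory chain genes 2 were higher (4.17%), with a median of 0.049. They were the complex IV subunit Cox5a (log2 fold change 0.44, SE 0.081, edgeR adjusted p 3.60e-04) and the complex I subunit Ndufb9 (log2 fold change 0.27, SE 0.083, edgeR adjusted p 0.0337). Of 32 cholesterol and fatty acid synthesis genes 1 was higher (3.12%), Srebf1 (log2 fold change 0.44, SE 0.14, edgeR adjusted p 0.0358), with a median of 0.013. The respiratory count was 1, 1, 1 and 1 without experiments 1 to 4, the lipid synthesis count 0, 0, 0 and 0, and both were 0 with no replicate block. Slc2a1 lost its call without experiment 2 or 3 (edgeR adjusted p 0.0585 and 0.0782). Hk2 lost its call without experiment 4 (edgeR adjusted p 0.0665). Ndufb9 lost its call when any 1 experiment was left out (edgeR adjusted p 0.0973, 0.0573, 0.0877 and 0.186). Srebf1 lost its call when any 1 experiment was left out (edgeR adjusted p 0.0542, 0.117, 0.0718 and 0.171), and its log2 fold change was 0.29 without experiment 4.

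Among 22 Parkinson disease genes 1 was called (4.55%), below the 9.57% over all genes tested. The count was 0, 1, 0 and 3 without experiments 1 to 4, and 1 with no replicate block. Gch1, which makes the tetrahydrobiopterin needed for nitric oxide and dopamine synthesis, held 54.7, 61.2, 80.5 and 68.9 CPM in donors 1 to 4 against 30.4, 45.3, 42.3 and 29.0 in acceptors (log2 fold change 0.86, SE 0.20, edgeR adjusted p 0.00447), with no overlap. Gch1 lost its call without experiment 1 or 3 (edgeR adjusted p 0.0511 and 0.0567).

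Genes outside the lists were among the largest rises. The phospholipase Pla1a held 0.876, 0.563, 1.76 and 9.04 CPM in donors 1 to 4 against 0, 0, 0.140 and 0.172 in acceptors (log2 fold change 4.73, SE 0.99, edgeR adjusted p 0.0015), with no overlap. The hyaluronan synthase Has1 held 0.350, 0.141, 0.479 and 15.5 against 0, 0, 0 and 1.12 (log2 fold change 4.50, SE 0.91, edgeR adjusted p 0.0012) and was not tested without experiment 4, where it fell below the filter. Mir155hg, the host transcript of miR-155, held 0.0876, 0.352, 0.798 and 21.5 against 0, 0.129, 0 and 1.21 (log2 fold change 3.92, SE 1.10, edgeR adjusted p 0.0192). Dnmt3l, a cofactor of DNA methyltransferases, held 1.14, 1.34, 2.63 and 9.04 against 0, 0.129, 0 and 1.90 (log2 fold change 3.51, SE 0.67, edgeR adjusted p 4.65e-04). In Has1 and Mir155hg experiment 4 exceeded the others in both populations. Mir155hg lost its call without experiment 3 or 4 (edgeR adjusted p 0.0823 and 0.165). Dnmt3l's log2 fold change was 5.50 without experiment 4.

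Among the largest falls some were clean and some tracked single libraries. Zbtb16, a glucocorticoid-induced transcription factor, held 0.438, 0.352, 0 and 0.317 CPM in donors 1 to 4 against 3.29, 7.996, 1.83 and 7.24 in acceptors (log2 fold change -4.15, SE 0.65, edgeR adjusted p 4.07e-05). Ndnf, a secreted neuron-derived factor, held 0.438, 0.423, 0.0798 and 0.159 against 3.66, 3.61, 2.11 and 5.26 (log2 fold change -3.72, SE 0.60, edgeR adjusted p 5.21e-05), and the translational repressor Nanos1 20.1, 10.5, 9.66 and 3.89 against 51.4, 39.3, 25.3 and 75.3 (log2 fold change -2.32, SE 0.48, edgeR adjusted p 0.00139). All 3 are lower in every donor than in every acceptor. The zinc finger gene Zfp618 held 0.964, 0.211, 1.60 and 2.22 CPM against 15.9, 1.68, 8.77 and 15.4 (log2 fold change -3.07, SE 0.46, edgeR adjusted p 1.93e-05), lower in the donor of every pair. The kinase Map3k20, at 20.1, 14.1, 17.4 and 13.8 against 44.0, 38.7, 31.5 and 36.1 CPM (log2 fold change -1.20, SE 0.14, edgeR adjusted p 2.32e-07), and the zinc finger gene Patz1, at 9.20, 5.78, 7.18 and 5.87 against 22.8, 15.5, 15.3 and 24.0 (log2 fold change -1.46, SE 0.17, edgeR adjusted p 4.71e-07), separate as well. The P2Y receptor P2ry1 held 0.438, 0.352, 0.798 and 0 CPM against 2.91, 0.387, 3.58 and 0.948 (log2 fold change -2.29, SE 0.63, edgeR adjusted p 0.016), with donor 3 above acceptor 2. Nanos1's log2 fold change was -1.54 without experiment 4. P2ry1 lost its call without experiment 1 or 3 (edgeR adjusted p 0.114 and 0.0812).

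Ptprz1, Bcas1, Nr2f1, B3gat1 and Dcc, genes of glia and neurons, were also among the 12 largest falls. Ptprz1 held 0.613, 0, 11.5 and 0.714 CPM in donors 1 to 4 against 3.00, 2.71, 28.6 and 15.2 in acceptors (log2 fold change -2.29, SE 0.67, edgeR adjusted p 0.0255), and Nr2f1 0.175, 0.141, 2.55 and 0.397 against 0.845, 0.774, 16.1 and 4.05 (log2 fold change -2.66, SE 0.54, edgeR adjusted p 0.00105). All 5 were highest in library 3 of each population, and highest of all in acceptor 3, the library with the highest astrocyte, oligodendrocyte and neuronal marker sums (50.2, 336 and 22.3 CPM), and the part of such cells in the difference was not tested. The protocadherin Pcdhga3 (log2 fold change -4.43, SE 1.23, edgeR adjusted p 0.0176) shares its strand and position with 26 other genes of the cluster, and reads cannot be assigned to it with certainty. Bcas1 lost its call without experiment 2 or 4 (edgeR adjusted p 0.11 and 0.145), and its log2 fold change was -4.41 without experiment 3. B3gat1 lost its call without experiment 1, 2 or 3 (edgeR adjusted p 0.0716, 0.106 and 0.13), and its log2 fold change was -5.26 without experiment 3. Dcc lost its call when any 1 experiment was left out (edgeR adjusted p 0.092, 0.113, 0.07 and 0.118), and its log2 fold change was -5.85 without experiment 3. Ptprz1 lost its call without experiment 2 or 4 (edgeR adjusted p 0.151 and 0.064), and its log2 fold change was -4.05 without experiment 3. Pcdhga3 lost its call without experiment 2 or 3 (edgeR adjusted p 0.0502 and 0.087).

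Glucocorticoid-responsive genes did not move together. Of 15 tested 3 were higher and 2 lower (33.3% called, beside 9.57% over all genes). Tsc22d3, a glucocorticoid-induced leucine zipper protein, held 100.1, 129, 66.5 and 89.3 CPM in donors 1 to 4 against 31.1, 47.3, 24.4 and 26.1 in acceptors (log2 fold change 1.59, SE 0.20, edgeR adjusted p 1.03e-06), opposite to Zbtb16 and to the metallothionein Mt2 (log2 fold change -1.31, SE 0.25, edgeR adjusted p 4.64e-04). Sgk1 (log2 fold change 0.94, SE 0.18, edgeR adjusted p 4.65e-04) and Lcn2 were the other 2 higher members. The count was 5, 5, 5 and 7 without experiments 1 to 4, and 2 with no replicate block.

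Most genes called at 15 min had the same direction when microglia had met alpha-synuclein without any co-culture. That comparison, 4 aSyn-treated libraries against untreated cells of the same 4 experiments, shares no library with donors and acceptors at 15 min. Of the 1260 genes, 1211 (96.1%) had the same sign there, against 72.2% of all genes tested. Genes called in both with the same sign numbered 795, which is 63.1% of the 1260 and 31.5% of the 2524 called after exposure alone (19.2% of genes tested; 8.95% higher and 10.2% lower), and 1 was called with the opposite sign. Across the 13169 genes, which are not independent replicates, the fold changes correlated with Pearson r 0.64 and Spearman rho 0.61. The median log2 fold change of the 658 higher genes was 0.82 at 15 min and 0.65 after exposure alone, and that of the 602 lower genes -0.68 and -0.58. For Adgre5 the values were 4.12 and 4.77, for Klf2 2.55 and 2.53, for Lcn2 4.24 and 8.15, and for the cell cycle list's median -0.77 and -1.60.

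**Figure D4:**
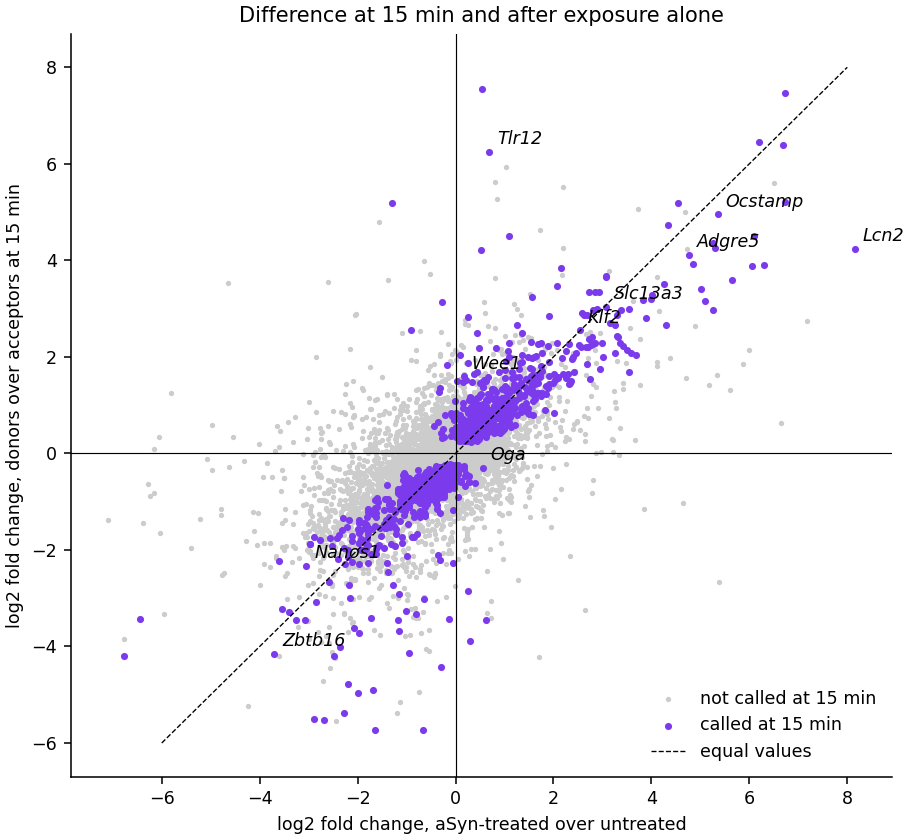
Log2 fold change of donors over acceptors at 15 min (vertical) against that of aSyn-treated over untreated cells (horizontal), 1 point per gene, with the 1260 genes called at 15 min in purple and a dashed line at equal values. Purple points lie mainly in the upper right and lower left, where 1211 of the 1260 have the same sign, and Wee1 and Oga lie apart from the dashed line.

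In 2 genes the 15 min difference itself differed from that after exposure alone (0.0152% of genes tested), 1 in each direction (0.00759%). Wee1, the kinase that holds cells back from mitosis, held 16.7, 10.3, 14.8 and 20.5 CPM in donors 1 to 4 against 4.04, 4.26, 5.90 and 5.95 in acceptors (log2 fold change 1.60, SE 0.20, edgeR adjusted p 1.03e-06), with no overlap. After exposure alone the change was 0.17 (edgeR adjusted p 0.573), and the difference between both was 1.43 (SE 0.27, edgeR adjusted p 0.0351). By group, Wee1 was 12.2 ± 4.17 CPM in untreated and 13.2 ± 2.93 in aSyn-treated cells, 15.6 ± 4.27 in donors and 5.03 ± 1.03 in acceptors at 15 min (SD, n = 4 each). Acceptors held the lowest mean of the 4 groups.

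Oga, the enzyme that removes O-linked N-acetylglucosamine from proteins, was lower in donors at 15 min, at 105, 115, 81.2 and 159 CPM against 134, 117, 117 and 203 (log2 fold change -0.31, SE 0.10, edgeR adjusted p 0.0439), and higher after exposure alone (0.56, edgeR adjusted p 1.18e-04). The difference between both was -0.86 (SE 0.14, edgeR adjusted p 0.0043). Untreated cells held 83.6 ± 22.0 CPM and aSyn-treated cells 124 ± 36.0, while donors and acceptors at 15 min held 115 ± 32.5 and 143 ± 40.8 (SD, n = 4 each). The count of such genes was 0 without experiment 1, without experiment 4, with no replicate block and in the blocked fit of the 4 groups alone. Without experiment 3 it was 1, a gene that is neither Wee1 nor Oga, and without experiment 2 it was 5, among them both. DESeq2 called 27, of which 1 is among these 2. In the main fit 1001 genes had an unadjusted edgeR p under 0.05. The 15 min difference in Oga was itself not called with no filter on low counts or with Rn45s left out (edgeR adjusted p 0.0741 and 0.0517). Oga lost its call without experiment 1, 3 or 4 (edgeR adjusted p 0.162, 0.252 and 0.221).

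No gene's donor-acceptor difference at 15 min was called as different from that at 0 min (3 pairs) or at 30 min (4 pairs). An unadjusted edgeR p-value under 0.05 was reached by 2.57% and 1.94% of genes, and DESeq2 with the block also called 0 in each. Adgre5 was 87.6 ± 8.02 CPM in donors and 4.64 ± 1.92 in acceptors at 0 min (SD, n = 3 each), 89.3 ± 7.51 and 5.19 ± 1.39 at 15 min, and 95.8 ± 16.5 and 4.67 ± 1.77 at 30 min (SD, n = 4 each). Klf2 was 188 ± 105 CPM in donors at 15 min and 21.3 ± 10.2 at 300 min, against 31.2 ± 9.79 in acceptors at 15 min (SD, n = 4 each) and 25.1 ± 8.94 at 300 min (SD, n = 3).

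**Figure D5:**
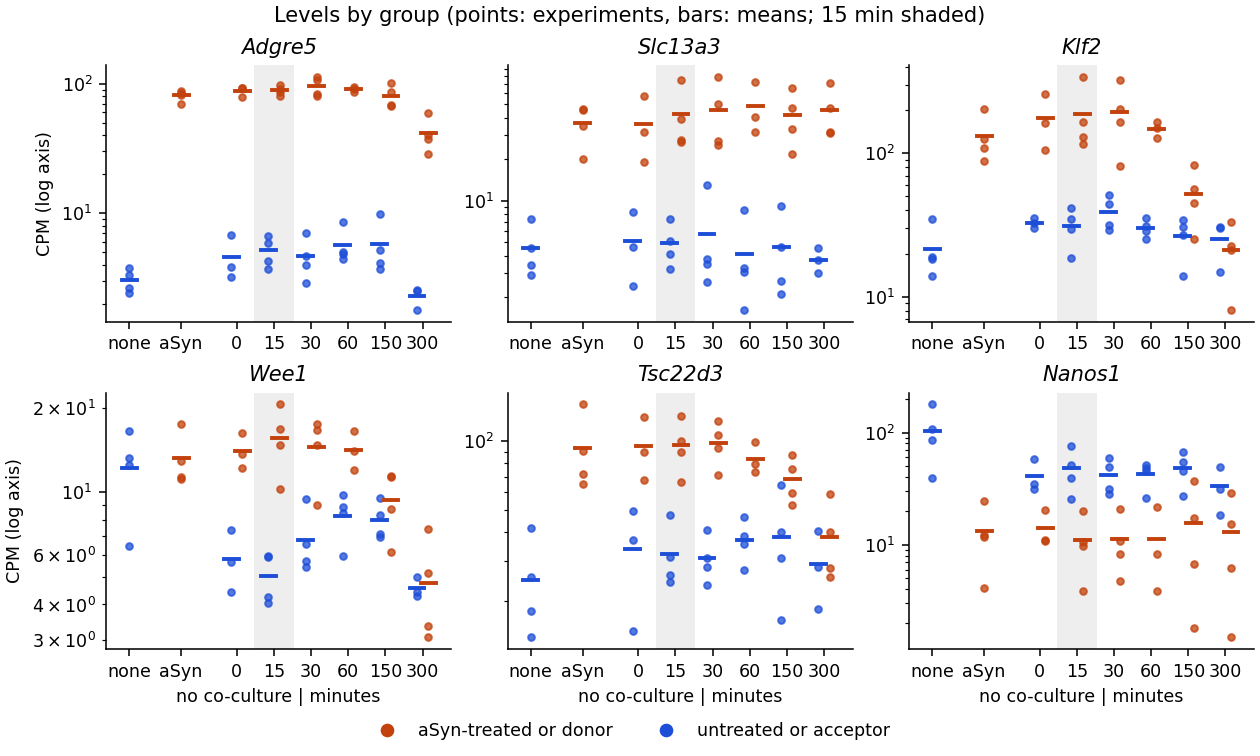
CPM on a log axis for 6 genes in untreated cells (none), aSyn-treated cells (aSyn) and co-cultured donors (orange) and acceptors (blue) at 0 to 300 min, with 15 min shaded; points are experiments and bars group means. Adgre5 and Slc13a3 are apart at every time shown, and Wee1 in acceptors at 15 min, at a mean of 5.03 CPM, lies below the untreated mean of 12.2.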

How the data were processed

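Raw counts by gene symbol, deposited by the authors for 54 libraries, were made with a forward 3′ kit that reads the ends of polyadenylated RNA, per the labels' protocols. The submitters' processing notes name STAR, Partek, DESeq2 and mm10; versions and the use of strand in counting are not given in the sources used here. A second deposited table, of normalized values, was not used. The table lists 16632 genes, each with at least 10 counts over all libraries. Molecular identifiers are not stated, so an interval or floor covers only counting error.

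Counts were fitted with edgeR 4.0.16 (TMM, filterByExpr with groups and a count minimum of 10, quasi-likelihood F test) to all 14 groups, with same-numbered untreated libraries summed, and the replicate number as an additive block. The pairing comes from the numbers in the titles and the shared passage of a number: the deviations of same-numbered libraries from the group means correlated with r of 0.33 to 0.51 in the 4 pairs. The p-values were Benjamini-Hochberg adjusted over the 13169 genes tested. CPM are on TMM-scaled library sizes, and log2 CPM use a prior count of 2. Differences of the 15 min difference from that after exposure alone, at 0 min and at 30 min were contrasts of the same fit. The fit was tested on simulated data. Gene positions are from GENCODE M21, and upstream sequences from RefSeq (GRCm38.p6); both are the build mm10. Motifs were searched on both strands.

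Named genes were the 12 largest higher and 12 largest lower among called genes of 1 sign in all 4 pairs with a mean of at least 1 CPM in either group, the 3 largest called members and the most abundant uncalled member of each list, up to 3 genes per contrast, and Adgre5 and Rn45s; some items are not reported here. Further genes were named after their values were seen, among them the 10 with the smallest p-values. The comparison, its members and the gene lists were chosen with earlier results of these data known. Alternatives were no block, the groups compared alone, RLE scaling (DESeq2's size factors), no filter, DESeq2 1.42.0 with the block, Rn45s left out, and each experiment left out.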

Additional observations from a re-analysis of the deposited data

Results flagged for a closer look

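In 31 of 191 groups of 4 libraries of the named genes (16.2%), 1 library lay far from the other 3 by Dixon's test. The test's rate of 5% holds for normally distributed values and cannot be set against that share, as the test was run on CPM. A group at 0 in all libraries but 1 is always flagged, as were the acceptors in Tlr12, Has1 and Il6. Experiment 4 accounted for 16 of the 31. Donor 4 stood high in Pla1a (9.04 CPM), Has1 (15.5), Cxcl3 (82.4), Lcn2 (544), Mir155hg (21.5), Il1a (138), Nos2 (90.6) and Il6 (20.1). Acceptor 4 stood high in Has1 (1.12 CPM), Cxcl3 (3.45), Lcn2 (25.2), Mir155hg (1.21), Il1a (8.79), Thbs1 (8.96), Dnmt3l (1.90) and Il6 (0.517). In Has1, Cxcl3, Lcn2, Mir155hg, Il1a and Il6 both members of pair 4 stood apart from the other 3 experiments.

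In experiment 3 the genes flagged in donor and acceptor differed apart from B3gat1. Donor 3 was apart in the glial and neuronal genes Dcc (0.559 CPM), B3gat1 (0.559), Bcas1 (1.44), Nr2f1 (2.55) and Ptprz1 (11.5). Acceptor 3 was apart in B3gat1 (5.62 CPM), Tlr12 (0.0702, which is 1 count), Marco (33.9), Fscn1 (34.6) and Mmp9 (119). In the other 2 experiments, donor 1 stood high in Top2a (51.1 CPM) and low in B2m (7978), acceptor 1 low in Mcl1 (396), donor 2 high in Csf1 (29.7) and acceptor 2 high in Oasl1 (29.8).

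The contrast of the 15 min difference with that after exposure alone picked out Wee1, at 1.43 on the log2 scale (edgeR adjusted p 0.0351), and Oga, at -0.86 (edgeR adjusted p 0.0043).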

How the results depend on the processing

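The number of genes called between donors and acceptors at 15 min was 1260. With no replicate block it was 117, in a blocked fit of only the groups compared 195, and with 1 experiment left out between 584 and 871; RLE scaling (1252), no filter (1069), DESeq2 with the block (1567) and leaving out Rn45s (1246) stayed within 1.5 times. Both smaller fits rest on a wider estimate of the spread or on fewer samples. The pairing also bears on the contrast with exposure alone: 2 genes were called in the blocked fit, 0 with no replicate block, 0 in the fit of only the groups compared, 27 with DESeq2, and 0 to 5 with 1 experiment left out. Contrasts with 0 min and 30 min gave 0 calls under every alternative run. Of 1344 recomputed fold changes of named genes 1331 kept their direction, 289 lost their call and 5 gained one. The 13 that changed direction were of genes not called. Without replicate 4, Ftl1 reached 0.10 (lowest with 1 experiment left out -0.20), Ctsb 0.10 (lowest -0.18), Cd36 0.091 (lowest -0.37), Actb -0.0097 (highest 0.082) and Hsp90ab1 -0.0040 (highest 0.098). Without replicate 3, Gabarap reached -0.00068 (highest 0.058) and Cdkn1a -0.023 (highest 0.21). Without 1 experiment, Atf3 ranged from -0.13 to 0.28, Fos from -0.097 to 0.50 and P2ry12 from -0.079 to 0.20. The cause was not tested. Depth limits genes near the floor: below about 1 CPM a library holds few counts, and Tlr12, Fosl1 and Gja1 are given as totals.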

Other observations

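The endothelial marker list had 2 of 4 tested members called higher in donors, beside 5% of all genes tested. Pecam1, also present on leukocytes, held 2.98, 1.97, 2.31 and 2.86 CPM in donors 1 to 4 against 0.0939, 0.645, 0.351 and 0.259 in acceptors (log2 fold change 2.91, SE 0.66, edgeR adjusted p 0.0032), and the receptor Kdr 13.7, 19.9, 10.5 and 24.0 against 4.04, 9.29, 10.5 and 5.26 (log2 fold change 1.15, SE 0.35, edgeR adjusted p 0.0332). Neither gene's groups overlap, though donor 3 and acceptor 3 were nearly equal in Kdr. Of 6 tested markers of border-associated macrophages, the chemokine Pf4 was higher at 116, 71.3, 92.3 and 155 against 56.4, 30.6, 64.2 and 51.0 CPM (log2 fold change 1.10, SE 0.21, edgeR adjusted p 5.39e-04). Pf4 was the only member called, where 9.57% of all genes tested were. The summed level of the border-associated macrophage list overlapped between donors (879.8 to 1256 CPM) and acceptors (763 to 1240.0). Pecam1 lost its call without experiment 1 (edgeR adjusted p 0.0592). Kdr lost its call without experiment 1, 2 or 4 (edgeR adjusted p 0.134, 0.114 and 0.18).

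The matrix protein Thbs1 held 10.1, 8.87, 29.6 and 106 CPM in donors 1 to 4 against 1.60, 0.645, 1.19 and 8.96 in acceptors (log2 fold change 3.66, SE 0.55, edgeR adjusted p 2.24e-05), and without experiment 4 the difference was 3.68 (SE 0.58, edgeR adjusted p 7.88e-05). The phosphatase Dusp2, a brake on MAP kinases, held 19.7, 33.2, 9.98 and 75.5 against 3.66, 6.45, 7.02 and 5.52 CPM (log2 fold change 2.28, SE 0.71, edgeR adjusted p 0.0347). Dusp2 lost its call without experiment 1, 2 or 3 (edgeR adjusted p 0.144, 0.151 and 0.0526).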
